A study of Mus musculus with 9 samples.

Results

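The shared response of neonatal mouse aortic valves to 2 retinoid compounds was measured as the difference between compound-treated and vehicle-treated cultures. It was defined as the mean of both compound groups against the DMSO group, with the same sign in each compound. All 9 arrays of the series entered it, 6 from treated and 3 from vehicle cultures. The tissue was the aortic valve of C57BL/6J pups at postnatal day 1, with no genetic alteration listed. For each sample, valves from 5 to 6 pups were combined and kept for 48 hours on floating filters in medium with serum. The control group received DMSO (0.001%), the ATRA group 1 µmol/L all-trans retinoic acid in DMSO, and the LE540 group the retinoic acid receptor antagonist LE540. The labels leave out the dose and vehicle of LE540 and the pups' sex, so doses could not be matched. There were 3 pools per group and 1 array per pool, and the titles call them biological replicates. The labels do not say whether the pools came from separate litters.

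Retinoic acid is a vitamin A derivative that enters the nucleus and binds the receptors RARα, RARβ and RARγ, which sit on DNA as heterodimers with RXR. Ligand binding switches these heterodimers from repression to activation, and the genes that respond first include the cell's own retinoid-clearing enzymes. Retinoic acid is known to direct the growth of the heart's outflow region and to influence the differentiation of mesenchymal cells, the cell class that fills the valve leaflets. An RAR agonist and an RAR antagonist are known to act on these genes in opposite directions. The comparison asks what the cultures given either compound had in common against the vehicle.

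Values are RMA intensities, an array measure of transcript abundance on a linear scale, and differences are given in log2 units, where 1 stands for a doubling. The 95% confidence intervals and standard errors (SE) come from a limma fit over all 9 arrays. The threshold for passing was an adjusted p under 0.1 by Benjamini and Hochberg's method, over 23397 probe sets with a gene symbol. "Rose", "fell" and "changed" are used only for what passed.

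Across the arrays, 13 of 13 markers of valve interstitial fibroblasts had a mean above the array medians (123.61 to 128.13), and their summed intensity was 22166 to 27511 in DMSO, 29456 to 32572 in ATRA and 16028 to 25210 in LE540 arrays. Heart muscle markers were also present, 21 of 22 above the array medians, with overlapping sums of 15886 to 31858, 15063 to 26470 and 15931 to 27654. LE540 replicate 1 stood apart on the first principal component (32.5% of the variance), at 63.7 against -21.5 to 13.9 for the other arrays. The pools also differed in sex-linked transcripts. Xist, the RNA that coats and silences an X chromosome in female cells, had intensities of 2903, 2589 and 2294 in DMSO, 86, 1393 and 326 in ATRA, and 62, 1652 and 1361 in LE540 arrays. Every treated array was below every DMSO array, a mean difference of -2.63 log2. An exact two-sided permutation test over the arrays gave p = 0.0238 (n = 6 and 3), the smallest p that 84 regroupings allow, and 0.0476 after adjustment over the 2 sex-linked measures. The mean log2 level of the Y-linked genes Eif2s3y, Kdm5d and Uty was 1.71 higher in treated arrays, with overlap (exact permutation p = 0.119, two-sided).

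**Figure D1:**
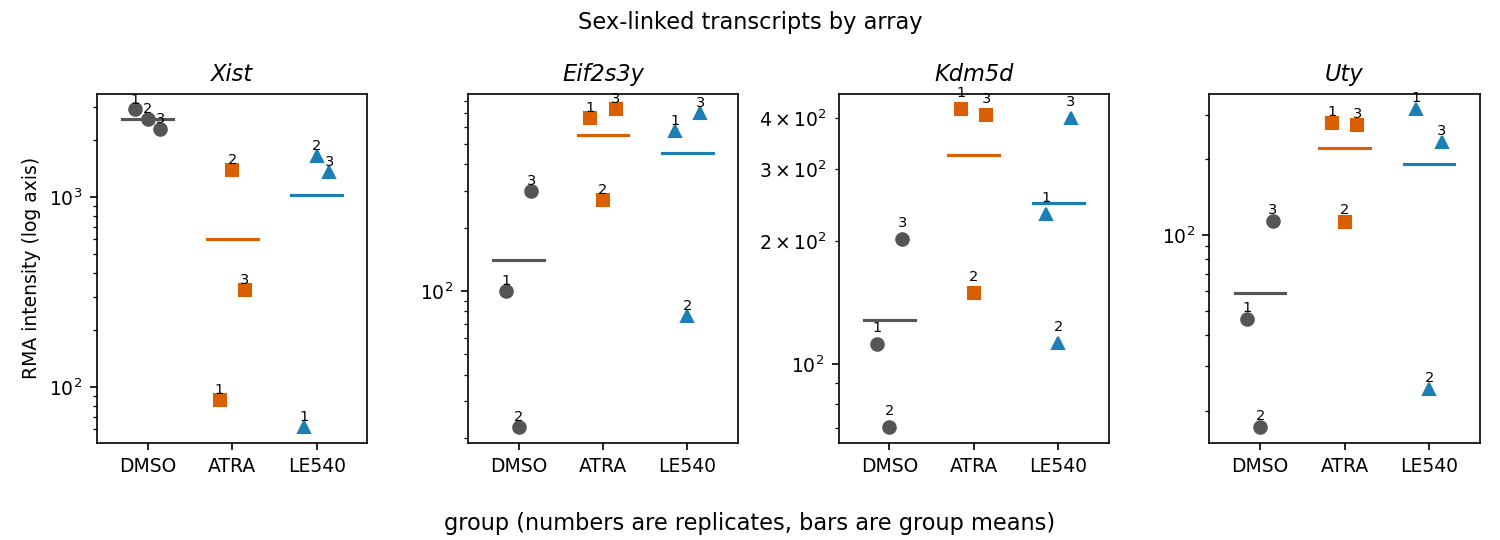
RMA intensity (log axis) of Xist and 3 Y-linked genes on each array, by group, with replicate numbers beside the points and bars for the group means. Xist was 2294 to 2903 on the 3 DMSO arrays and 62 to 1652 on the 6 treated arrays, while the Y-linked genes overlapped between groups.

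Only 1 of the 23397 probe sets passed as a shared change (0.00427%), and that gene, Tgm2, responded mainly to ATRA. Tgm2 encodes a transglutaminase that crosslinks proteins and is a classical retinoic acid target. Its intensity was 118, 110 and 108 in DMSO, 505, 572 and 610 in ATRA, and 138, 120 and 115 in LE540 arrays. The ATRA arrays lay far above the rest, whereas the LE540 and DMSO arrays overlapped. The mean of both compounds was 2.35-fold above DMSO (1.23 log2, SE 0.10, 95% interval 1.01 to 1.45, adjusted p = 0.0143). The difference was 2.32 log2 with ATRA and 0.14 with LE540 (interval -0.11 to 0.40, adjusted p = 0.704), and ATRA exceeded LE540 by 2.18 log2 (adjusted p = 0.000395). Tgm2 thus met the rule of equal sign although the interval of its LE540 difference included 0. Without DMSO replicate 1, 2 or 3 its adjusted p was 0.144, 0.111 and 0.145, and with the Y-linked level in the fit it was 0.118. With the treated arrays taken as 1 group it was 0.922.

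No probe set fell, and the next lowest adjusted p was 0.192. At an unadjusted p under 0.05 the limma fit had 1292 probe sets (5.52%), 593 of them higher and 699 lower (2.53% and 2.99%). Without regard to p, the 6 treated arrays all lay above the 3 DMSO arrays for 328 probe sets (1.40%) and all below them for 356 (1.52%), 684 in all (2.92%). With no difference between the groups, the share expected at an unadjusted p under 0.05 is 0.05. The share expected without overlap in either direction is 0.0238, from the 84 regroupings. Both observed shares were little above these. The median probe set had an SE of 0.13 log2 in this comparison. For each compound alone the fit called 19 probe sets with ATRA (0.0812%) and 7 with LE540 (0.0299%) against the same DMSO arrays, and 141 between the compounds (0.603%).

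Several genes with a large mean difference owed it to a single compound. Of the 20 probe sets with the lowest p, 9 also differed between the compounds, 5 of them larger with ATRA and 4 larger with LE540. Pparg, the nuclear receptor of fat cell differentiation, was 2.58 log2 above DMSO with ATRA and -0.13 with LE540. Fap, a surface protease of activated fibroblasts, stood at 2.74 and -0.35, and Piezo2, a mechanically gated ion channel, at 3.09 and 0.09. Csn3, a casein, was at 2.40 and 0.14. These 4 genes were named after their values were seen, and each differed between the compounds (adjusted p of 0.00138, 0.00138, 0.0123 and 0.00791). Dhrs3, the reductase that returns retinaldehyde to retinol, was at 2.81 and -0.38. On the other side, the metal-binding metallothioneins Mt2 and Mt1 were at 0.12 and 0.26 with ATRA and at 3.62 and 2.39 with LE540. Hmox1, the haem-degrading enzyme of the oxidative stress response, was at 0.05 and 1.70, and Ddit3, a transcription factor of the stress response also called CHOP, at -0.23 and 1.78. In each of these pairs the arrays of 1 compound carried the mean.

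**Figure D2:**
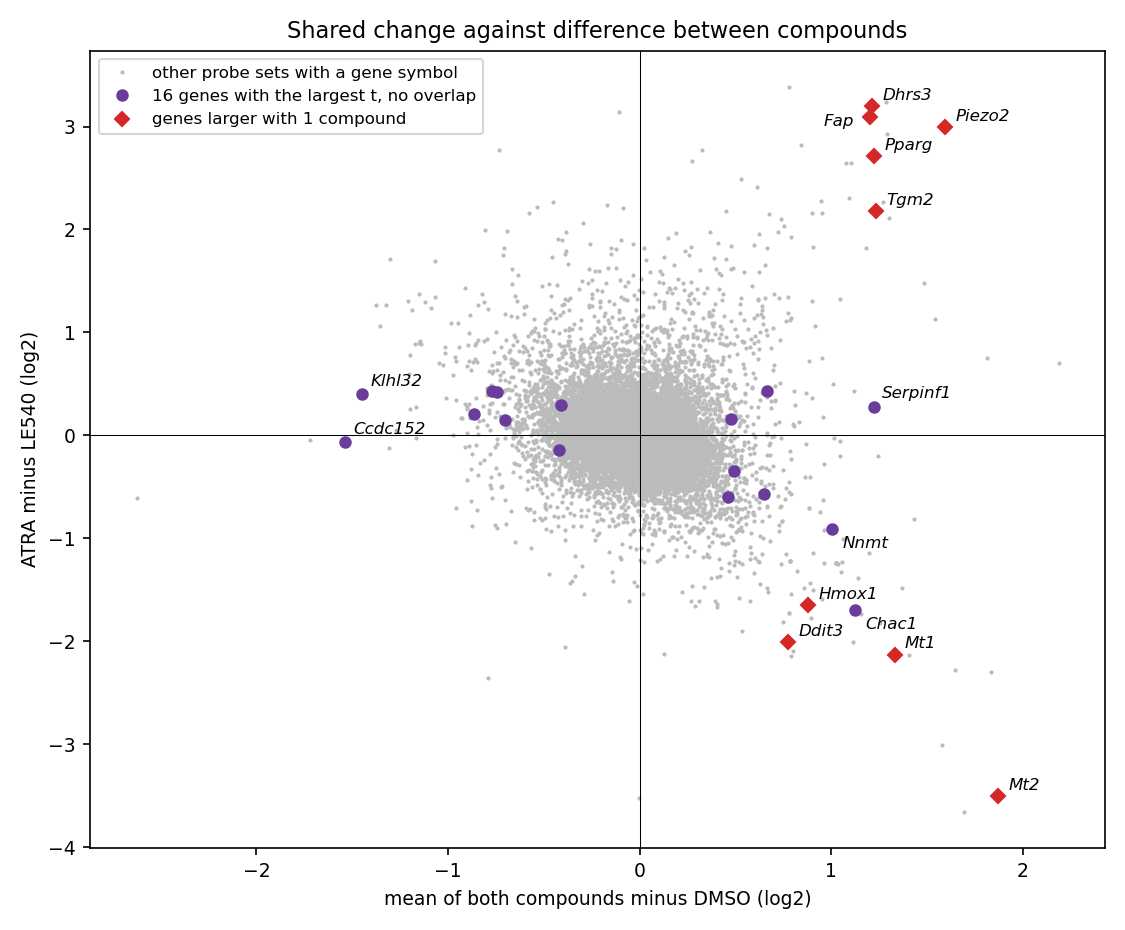
Each point is a probe set with a gene symbol: the horizontal axis is the mean of both compounds minus DMSO and the vertical axis ATRA minus LE540, both in log2. Tgm2, Pparg, Fap, Dhrs3 and Piezo2 lie near or above 1.2 on the horizontal axis but over 2 on the vertical axis, whereas Ccdc152 (-1.54 and -0.06) and Serpinf1 (1.22 and 0.28) lie close to the horizontal zero line.

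Among genes that did not pass, some had differences of like size in both compounds and others leaned towards 1 compound. Described next are the 8 higher and 8 lower genes with the largest moderated t among probe sets of 1 named gene whose treated arrays were clear of the DMSO arrays. Passed over at that level was 1 higher probe set, which lists Cdkn1a and another gene (1.05 log2). Among the lower ones it was the microRNA gene Mir29a, which is described separately. Serpinf1 encodes the secreted serpin PEDF, which inhibits blood vessel growth. Its intensity was 303, 548 and 316 in DMSO, 879, 946 and 1072 in ATRA, and 795, 711 and 886 in LE540 arrays. Each treated array was above each DMSO array, although DMSO replicate 2 was nearer to the treated arrays than the other two. The mean was 2.33-fold higher (1.22 log2, SE 0.19, interval 0.79 to 1.65, adjusted p = 0.383). The value was 1.36 with ATRA and 1.08 with LE540, and the compounds differed by 0.28 (interval -0.22 to 0.77). Without DMSO replicate 2 the adjusted p was 0.0613, the only omission of an array at which Serpinf1 passed.

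Zfp57, a zinc finger protein that keeps imprinted DNA methylation in place, had intensities of 276, 280 and 233 in DMSO, 549, 469 and 435 in ATRA, and 395, 338 and 345 in LE540 arrays. The LE540 arrays lay between the other groups. The mean was 0.67 log2 higher (SE 0.11, adjusted p = 0.476), at 0.88 with ATRA and 0.45 with LE540. Cap1, an actin-filament regulator, was 0.47 higher (SE 0.10, adjusted p = 0.825), at 0.56 and 0.39.

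Other genes of the higher set leaned towards LE540. Nnmt, which methylates nicotinamide, had intensities of 154, 150 and 143 in DMSO, 161, 261 and 247 in ATRA, and 414, 392 and 426 in LE540 arrays. ATRA replicate 1 lay just above the DMSO arrays. The mean was 1.00 log2 higher (SE 0.15, adjusted p = 0.367), at 0.55 with ATRA and 1.46 with LE540, and the compounds differed (-0.91 log2, adjusted p = 0.0927). Without ATRA replicate 1 the mean was 1.11 and the adjusted p 0.0148. Krtcap2, a subunit of the enzyme complex that attaches N-linked sugars, stood at 0.32 with ATRA and 0.66 with LE540 (mean 0.49, SE 0.09, adjusted p = 0.66). Jdp2, a repressor of the AP-1 transcription factor family, stood at 0.37 and 0.93 (mean 0.65, SE 0.13, adjusted p = 0.825). Nars, the ligase that charges tRNA with asparagine, stood at 0.16 and 0.76 (mean 0.46, SE 0.09, adjusted p = 0.825).

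Chac1, an enzyme that breaks down glutathione and a target of the integrated stress response, was the most uneven of these genes. Intensities were 200, 199 and 175 in DMSO, 226, 235 and 229 in ATRA, and 1251, 613 and 546 in LE540 arrays. The ATRA arrays sat narrowly above DMSO and the LE540 arrays far above, with LE540 replicate 1 highest. The mean was 1.12 log2 higher (SE 0.23, adjusted p = 0.825), at 0.27 with ATRA and 1.97 with LE540, and the compounds differed (-1.70, adjusted p = 0.0537). Without LE540 replicate 1 the mean was 0.94 and the adjusted p 0.0592.

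**Figure D3:**
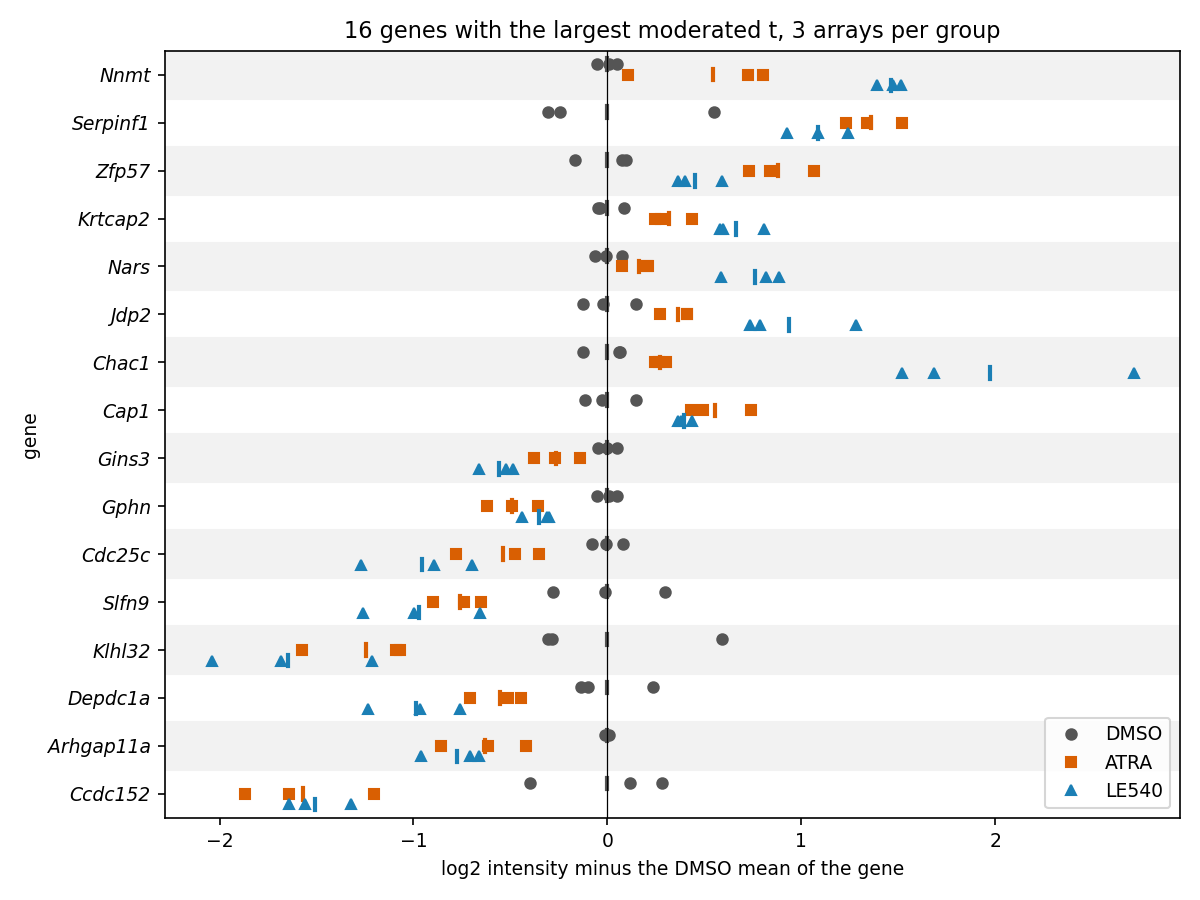
Log2 intensity of each array minus the DMSO mean of the gene, for the 8 higher and 8 lower genes with the largest moderated t among probe sets of 1 named protein-coding gene clear of DMSO; points are arrays (3 per group) and short bars group means. Serpinf1 and Ccdc152 show ATRA and LE540 arrays together, whereas the LE540 arrays of Chac1 and Nnmt lie to the right of the ATRA arrays.

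Among lower genes the most even was Ccdc152, a coiled-coil protein gene. Intensities were 51.3, 45.8 and 32.0 in DMSO, 11.6, 13.5 and 18.3 in ATRA, and 13.5, 14.3 and 16.9 in LE540 arrays. The treated arrays overlapped each other and all lay below DMSO. The mean was 2.91-fold lower (-1.54 log2, SE 0.19, interval -1.97 to -1.11, adjusted p = 0.192), at -1.57 with ATRA and -1.51 with LE540. The compounds differed by -0.06 (interval -0.56 to 0.43). All 9 values were dim, under each array's lower quartile (57.7 to 63.0), and how far they stood above background is unknown. In the RefSeq gene table Ccdc152 overlaps Selenop, the selenium carrier gene. Selenop intensities were 863, 587 and 961 in DMSO, 1206, 798 and 940 in ATRA, and 128, 630 and 536 in LE540 arrays (mean difference -0.43 log2, adjusted p = 0.898). Its groups overlapped, and its part in the Ccdc152 value was not tested.

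Klhl32, of the Kelch family, had intensities of 95, 97 and 177 in DMSO, 55, 56 and 39 in ATRA, and 37, 29 and 51 in LE540 arrays on 1 probe set. All treated arrays lay below DMSO on it, and DMSO replicate 3 was the highest array. The mean difference was -1.45 log2 (SE 0.25, adjusted p = 0.531), at -1.25 and -1.65. The other probe set of Klhl32 overlapped between groups at -0.16 (adjusted p = 0.88), so the probe sets disagreed. This other probe set had the higher mean, the rule by which lists took 1 probe set per gene. Slfn9, a Schlafen family gene, stood at -0.76 with ATRA and -0.97 with LE540 (mean -0.87, SE 0.16, adjusted p = 0.711). Gphn, the scaffold protein gephyrin, stood at -0.49 and -0.35 (mean -0.42, SE 0.09, adjusted p = 0.825).

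The microRNA gene Mir29a, named after its values were seen, had the fourth lowest p of the comparison. The miR-29 family is known for repressing collagen and elastin transcripts through a shared seed, the bases that pair with targets. The mature miR-29a sequence from RefSeq is shown because its seed (capitals, bases 2 to 8) is what the family shares.
mmu-miR-29a-3p: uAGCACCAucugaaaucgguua
This sequence lies at chr6:31062673-31062694 on the minus strand (GRCm38.p6). The Mir29a probe set had intensities of 23.0, 18.7 and 22.4 in DMSO, 12.01, 11.4 and 15.2 in ATRA, and 10.5, 9.38 and 11.2 in LE540 arrays. The groups did not overlap (mean -0.89 log2, SE 0.12, adjusted p = 0.309), at -0.74 with ATRA and -1.04 with LE540, but every value is dim, under the lower quartile of the arrays. A probe set of this gene does not separate precursor from mature RNA. Mir29b-1, on the same chromosome, overlapped between groups at -0.21 (adjusted p = 0.885). Another 2 probe sets list a miR-29 family gene together with a second gene; they overlapped between groups and stood in opposite directions, at 0.70 and -0.49 (adjusted p = 0.889 and 0.873). Of 17 measured members of the fibrillar and beaded collagen list, 12 were higher and 5 lower, 0 passed, and the median was 0.05 against 0.01 over all genes (0.00 without DMSO replicate 2 and 0.15 without DMSO replicate 3). The elastic fibre list had a median of 0.07, at 0.28 with ATRA and -0.22 with LE540, and of -0.02 without ATRA replicate 2.

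The other 4 genes of the lower set were Arhgap11a, Depdc1a, Cdc25c and Gins3. Arhgap11a encodes a GTPase-activating protein. Its intensity was 399, 402 and 396 in DMSO, 221, 261 and 298 in ATRA, and 245, 253 and 205 in LE540 arrays. The DMSO arrays were tightly grouped and the treated groups overlapped each other. The mean difference was -0.70 log2 (SE 0.11, adjusted p = 0.474), at -0.63 and -0.78, with 0.15 between the compounds (interval -0.15 to 0.44). Cdc25c, the phosphatase that activates Cdk1 at entry into mitosis, had intensities of 235, 221 and 211 in DMSO, 160, 129 and 174 in ATRA, and 92, 137 and 119 in LE540 arrays. Its mean difference was -0.75 (SE 0.14, adjusted p = 0.723), at -0.54 and -0.96. Depdc1a stood at -0.55 with ATRA and -0.99 with LE540 (mean -0.77, SE 0.13, adjusted p = 0.531), and its second probe set had a mean of -0.78. Gins3, a subunit of the replicative helicase, stood at -0.26 and -0.56 (mean -0.41, SE 0.09, adjusted p = 0.825).

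Cell cycle genes were mostly lower in the mean of both compounds, without any member passing. Of 25 measured members of a list of 26 genes, 24 were lower and 1, Mcm2, higher. The median was -0.48 log2 against 0.01 over all genes, at -0.30 with ATRA and -0.57 with LE540, and -0.12 in the mean with the pools' Y-linked level in the fit. At an unadjusted p under 0.05, 9 members were lower, against 2.99% of all probe sets. All treated arrays were below all DMSO arrays for 8 members, against 1.63% of all genes. In bulk tissue, fewer cycling cells and less of these RNAs per cell cannot be told apart.

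Kif11, the motor that separates the spindle poles, had the largest difference in the list. Intensities were 417, 496 and 478 in DMSO, 185, 388 and 318 in ATRA, and 50, 392 and 180 in LE540 arrays. LE540 replicate 1 was lowest and replicate 2 of each treated group was nearest to DMSO (mean -1.15, SE 0.54, adjusted p = 0.852). Top2a, which untangles DNA before division, had intensities of 1007, 1342 and 1373 in DMSO, 794, 939 and 830 in ATRA, and 260, 942 and 564 in LE540 arrays (mean -0.89, SE 0.34, adjusted p = 0.852). Cdc6, a loader of the replication helicase, had intensities of 131, 153 and 133 in DMSO, 103, 119 and 87 in ATRA, and 96, 95 and 88 in LE540 arrays. Its treated groups were close to each other, at -0.44 with ATRA and -0.57 with LE540 (mean -0.51, SE 0.11, adjusted p = 0.85). The spindle factor Tpx2 was likewise even, at -0.54 and -0.57. The mitotic checkpoint kinase Bub1 was at -0.47 and -1.71, the centromere motor Cenpe at -0.44 and -1.53, the ubiquitin-conjugating enzyme Ube2c at -0.17 and -0.87, and the cytokinesis motor Kif20a at -0.25 and -0.60. The proliferation marker Mki67 was at -0.36 and -1.17, with overlap between treated and DMSO arrays.

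Several genes of DNA replication in the list had overlapping groups. The helicase subunits Mcm3, Mcm5 and Mcm6 had mean differences of -0.51, -0.24 and -0.23, Mcm2 of 0.08, and the replication clamp Pcna of -0.19, all with overlap between treated and DMSO arrays. The mean log2 level of the whole list, centred on each gene's mean, ran from 0.18 to 0.48 in DMSO, from -0.17 to 0.21 in ATRA and from -0.85 to 0.25 in LE540 arrays, so the groups overlapped on that measure. The list median lay between -0.63 (without LE540 replicate 2) and -0.35 (without LE540 replicate 1) when any single array was left out. With 1 array left out, 8 to 11 members were clear of DMSO, against 2.03% to 4.14% of all genes. Leaving out an array cannot lower this count, so it does not test the members that were clear. With the heart muscle level in the fit the median was -0.47. The part of the pools' sex in the cell cycle values, as in the whole comparison, was not tested beyond the fit with the Y-linked level. Xist separated all treated arrays from all DMSO arrays, whereas the Y-linked level overlapped between groups.

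**Figure D4:**
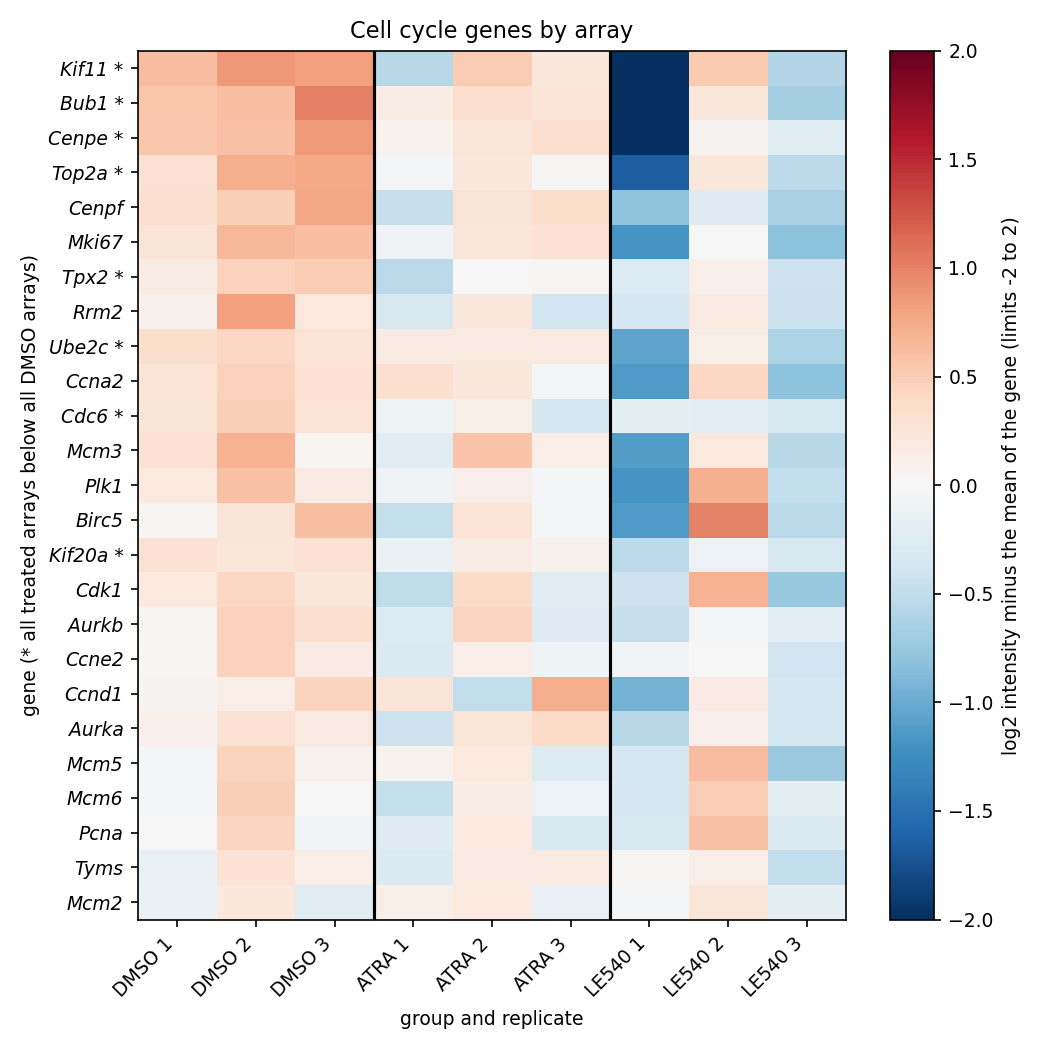
Log2 intensity of each measured cell cycle gene minus its mean over 9 arrays, by array; red is above and blue below the mean, the colour scale stops at -2 and 2, and asterisks mark the 8 genes whose 6 treated arrays all lie below the 3 DMSO arrays. DMSO columns are mostly red, LE540 replicate 1 is the darkest blue, and LE540 replicate 2 is near or above the mean for several genes.

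Promoters of these lower genes were read for 2 motifs known from cell cycle genes. The CHR (letters TTTGAA) is bound by the DREAM and MuvB complexes, and the CCAAT box (letters CCAAT) by NF-Y. Both strands of the RefSeq window from 250 bases before to 50 after each start site were searched (300 bases, GRCm38.p6). Shown are 3 promoters with both motifs, those of Arhgap11a and Depdc1a from the lower set and of Kif11, the list member with the largest difference. Capitals mark the motifs, which on the minus strand read TTCAAA and ATTGG.
Arhgap11a: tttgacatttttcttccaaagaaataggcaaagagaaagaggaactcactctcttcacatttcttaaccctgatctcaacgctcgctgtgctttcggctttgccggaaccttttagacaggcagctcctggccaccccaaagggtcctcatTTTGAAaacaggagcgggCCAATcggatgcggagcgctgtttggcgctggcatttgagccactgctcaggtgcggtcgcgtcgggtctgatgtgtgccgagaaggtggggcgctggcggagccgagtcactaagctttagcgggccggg
Depdc1a: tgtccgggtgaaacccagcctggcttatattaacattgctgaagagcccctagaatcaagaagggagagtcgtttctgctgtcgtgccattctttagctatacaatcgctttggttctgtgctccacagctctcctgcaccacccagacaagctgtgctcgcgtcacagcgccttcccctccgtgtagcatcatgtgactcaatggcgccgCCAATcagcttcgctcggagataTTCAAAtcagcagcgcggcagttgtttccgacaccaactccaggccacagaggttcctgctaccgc
Kif11: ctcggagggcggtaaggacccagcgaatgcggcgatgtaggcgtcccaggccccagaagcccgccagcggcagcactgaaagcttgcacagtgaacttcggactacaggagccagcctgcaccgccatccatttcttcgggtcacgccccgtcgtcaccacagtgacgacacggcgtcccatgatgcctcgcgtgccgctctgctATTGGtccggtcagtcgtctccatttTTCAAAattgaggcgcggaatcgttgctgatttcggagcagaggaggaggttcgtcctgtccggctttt
These windows are chr2:113848612-113848911 on the minus strand, chr3:159495183-159495482 on the plus strand and chr19:37376132-37376431 on the plus strand. The first CHR base lay 99, 16 and 19 bases upstream of the start, and the first CCAAT base 81, 39 and 45 bases upstream. Of 20 cell cycle list genes with a RefSeq promoter, 9 had the CHR (45%), against 17.9% of 32851 promoters, and 17 had CCAAT (85%), against 37.4%. The list was chosen as cell cycle genes, so these shares describe the list and not the difference from DMSO. Of its 6 members clear of DMSO with a promoter, 3 had the CHR and 5 CCAAT, too few to tell from the whole list. Of 7 genes of the lower set with a promoter, 3 had the CHR and 5 CCAAT. Of 11 promoters of 6 genes of the higher set, 0 had the CHR, and so few promoters cannot show a difference from 17.9%. A match describes these letters in this window and is no evidence of binding here.

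Of 19 measured targets of retinoic acid itself, 15 were higher and 4 lower in the mean, 1 passed (Tgm2), and the median was 0.13, at 0.29 with ATRA and -0.03 with LE540 (0.07 without DMSO replicate 2). The receptor gene Rarb was at 2.25 with ATRA and -0.57 with LE540, and Cyp26a1, which hydroxylates retinoic acid, at 1.25 and 0.03. Cyp26b1, another retinoic acid hydroxylase, was the 1 member whose treated arrays were all above DMSO, against 1.16% of all genes. Its intensity was 107, 101 and 120 in DMSO, 188, 172 and 245 in ATRA, and 130, 129 and 122 in LE540 arrays. LE540 replicate 3 cleared the highest DMSO array by little, and the mean was 0.55 (SE 0.12, adjusted p = 0.85), at 0.87 and 0.22.

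RXR also pairs with PPAR, LXR and the vitamin D receptor. Of 17 measured target genes of these partners, 8 were higher and 9 lower, 0 passed, and the median was 0.00, at 0.22 with ATRA and -0.10 with LE540. Plin2, the coat protein of lipid droplets and a PPAR target, had intensities of 779, 583 and 698 in DMSO, 957, 1203 and 977 in ATRA, and 815, 1048 and 965 in LE540 arrays. Its treated arrays were all above DMSO, as for 1.16% of all genes. The value was 0.61 with ATRA and 0.46 with LE540 (mean 0.53, SE 0.13, adjusted p = 0.852). Mylip, an LXR target that marks the LDL receptor for degradation, had intensities of 335, 307 and 338 in DMSO, 294, 196 and 275 in ATRA, and 155, 156 and 201 in LE540 arrays. It was below DMSO on all treated arrays, as for 1.63% of all genes, at -0.38 and -0.94 (mean -0.66, SE 0.15, adjusted p = 0.85). Abca1, the LXR-regulated cholesterol exporter, had the largest mean difference of the list, -1.15, with overlap between groups (-0.47 and -1.84, adjusted p = 0.852). Xenobiotic receptor targets had a median of -0.06, and 6 of 14 measured members had a mean under the lower quartile of the arrays. Among the measured targets the hydroxylases Cyp1a1 and Cyp1b1 had means of 0.20 and -0.37, both with overlap. Cyp1a1 was dim, with a mean under the lower quartile over all rows, and its distance from background is unknown.

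Stress genes were mostly higher in the mean, with a higher median for LE540 than for ATRA. Of 22 measured members of the integrated stress and unfolded protein response list, 21 were higher, 15 of them at an unadjusted p under 0.05, against 2.53% of all probe sets, and 0 passed. The median was 0.54 in the mean, -0.02 with ATRA and 1.097 with LE540. Chac1 was the 1 member whose treated arrays were clear of DMSO, against 1.16% of all genes. Asns, which makes asparagine, was at 0.11 with ATRA and 2.12 with LE540, Slc7a5, an amino acid transporter, at 0.45 and 1.83, and Atf4, the transcription factor at the head of the response, at 0.04 and 1.12. The centred list level was -0.50 to -0.27 in DMSO, -0.65 to -0.22 in ATRA and 0.45 to 1.15 in LE540 arrays, so ATRA and DMSO overlapped while LE540 stood clear of both.

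The CARE motif (letters TGATGNAA, where N is any base) is known as a site of ATF4 and C/EBP dimers. The Chac1 promoter is shown as that of the 1 member clear of DMSO on all treated arrays, with the motif, on the minus strand, in capitals.
Chac1: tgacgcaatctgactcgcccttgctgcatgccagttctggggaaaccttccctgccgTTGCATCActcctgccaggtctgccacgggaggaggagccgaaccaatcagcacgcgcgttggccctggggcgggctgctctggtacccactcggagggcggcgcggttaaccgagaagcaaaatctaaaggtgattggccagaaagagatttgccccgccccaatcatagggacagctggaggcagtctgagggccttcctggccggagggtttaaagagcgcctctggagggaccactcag
This window is chr2:119350992-119351291 on the plus strand (GRCm38.p6), and the first motif base lay 193 bases upstream of the start. Of 24 promoters of 21 list genes, 7 held the motif (29.2%), against 3.97% of all promoters. The list was chosen as genes of this response, so its share describes the list and not the difference from DMSO. Among 11 promoters of 6 genes of the higher set, 3 held it, those of Chac1, Jdp2 and Serpinf1. These promoters are few, some belong to the same gene, and their share was not tested. A match is no evidence of binding here.

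Targets of p53, which halt division or start cell death after damage, had a median of 0.21 over 12 measured members, at 0.20 with ATRA and 0.14 with LE540, with 9 higher, 3 lower and 0 passing. The treated arrays of Phlda3, an inhibitor of Akt signalling, and Zmat3, an RNA-binding p53 target, were clear of DMSO, against 1.16% of all genes. Cdkn1a, the cell cycle inhibitor of the list, was left out of these counts because its probe set also lists another gene. That probe set was 0.95 log2 above DMSO with ATRA and 1.15 with LE540, and did not pass (limma adjusted p = 0.531 for the mean). All its treated arrays lay above DMSO, as for 1.40% of all probe sets. Phlda3 had intensities of 323, 337 and 366 in DMSO, 430, 474 and 523 in ATRA, and 530, 537 and 379 in LE540 arrays, with LE540 replicate 3 just above the highest DMSO array. The mean was 0.48 (SE 0.13, adjusted p = 0.852), at 0.47 and 0.48. Zmat3 stood at 0.30 and 0.41. Mdm2, the p53 ubiquitin ligase, was at 0.07 and Ccng1, a cyclin induced by p53, at 0.15, both with overlap. With the Y-linked level in the fit the list median was 0.11.

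Mineralization matters in the aortic valve because calcified leaflets stiffen. Of 10 measured mineralization inhibitor and pyrophosphate genes, 4 were higher, 6 lower and 0 passed (median -0.13, at 0.13 with ATRA and -0.45 with LE540). Without DMSO replicate 1 that median was 0.07, and without DMSO replicate 2 it was -0.22. Ank, which exports pyrophosphate, an inhibitor of mineral growth, had intensities of 1212, 1260 and 1202 in DMSO, 905, 826 and 726 in ATRA, and 582, 947 and 702 in LE540 arrays. All treated arrays were below DMSO, as for 1.63% of all genes, and the mean was -0.67 (SE 0.15, adjusted p = 0.85), at -0.59 and -0.75. Sost, a secreted Wnt inhibitor, was above DMSO on all treated arrays by a small margin, as for 1.16% of all genes, at 0.16 and 0.28. The bone formation list had a median of 0.09 over 14 measured members (0.05 without ATRA replicate 2) and the cartilage list of 0.03 over 21, with 0 passing and no member clear of DMSO in either.

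Markers of other cell types were compared for all 12 lists, and 0 of their members passed. Endothelial and endocardial markers were higher for 17 of 20 members, with a median of 0.19, at 0.36 with ATRA and -0.03 with LE540. Their summed intensity was 3147 to 5353 in DMSO, 4017 to 8550 in ATRA and 2797 to 5109 in LE540 arrays, and ATRA replicate 2 held the highest sum. Without that array the median was 0.00. No endothelial member was clear of DMSO. Medians were -0.04 for cardiomyocyte, -0.04 for macrophage and -0.03 for valve interstitial fibroblast markers, the last at 0.30 with ATRA and -0.30 with LE540. Lymphocyte and thymocyte markers had no member with a mean above the array medians.

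**Figure D5:**
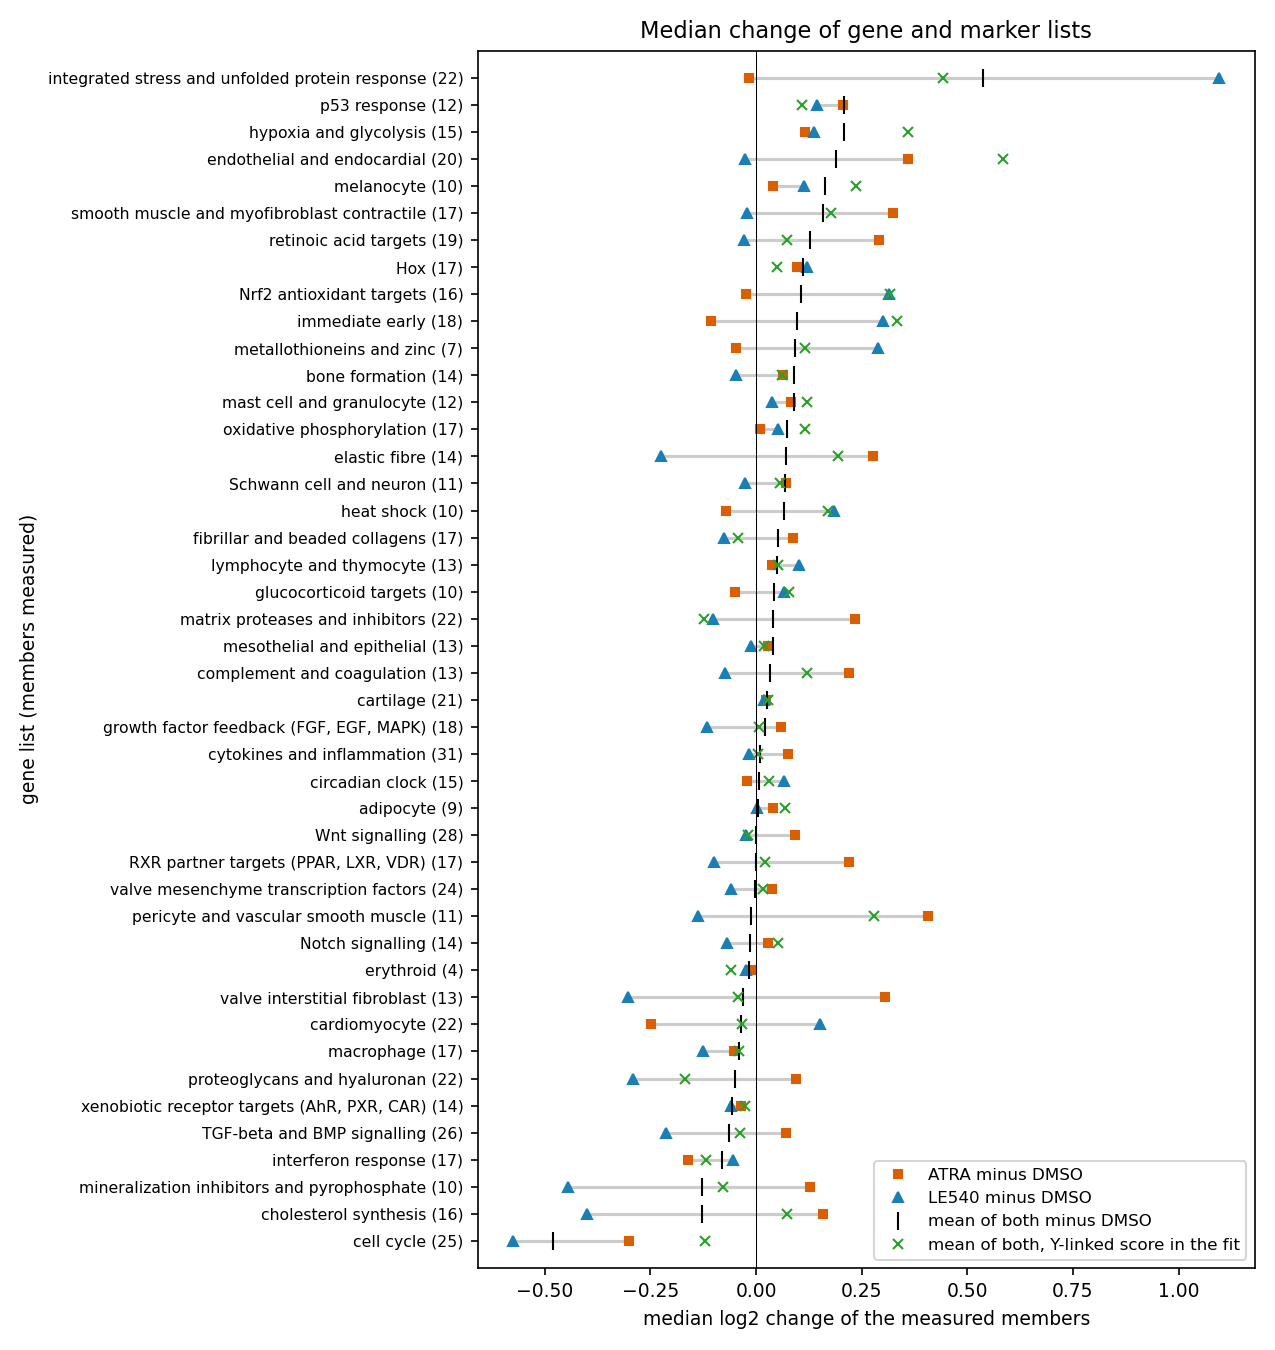
Median log2 difference from DMSO over the measured members of each gene or marker list, for ATRA (squares), LE540 (triangles), the mean of both (bars) and the mean with the Y-linked level in the fit (crosses). The list of sex-linked genes, with a median of 1.47 for the mean of both, is not shown. The mean is taken gene by gene, so its median can lie outside the other two; cell cycle has the lowest bar (-0.48; -0.12 with the Y-linked level) and the stress list the highest (0.54), with ATRA at -0.02 and LE540 at 1.097.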

How the data were processed

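Expression was measured on 9 one-colour arrays, 3 per group. The authors deposited RMA intensity values, made with Affymetrix Expression Console 1.1 per the submitters' processing notes; their annotation and genome build are not given in the sources used here. Values ran from 4.09 to 17798.24, a linear scale, so log2 was taken here of the deposited values. Quantile normalization within RMA makes arrays alike in total and removes any shift of all genes. Of 28270 rows, 23397 had a gene symbol in the platform annotation (21780 with 1, 1617 with several) and were tested, and 4873 had none. RefSeq tables (GRCm38.p6) held 21689 of the 21780 Entrez identifiers, with 0 symbols differing. Lists used 1 probe set per gene, the one with the highest mean (19934 genes).

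limma 3.58.1 in R 4.3.3 fitted 3 groups over all 9 arrays (6 residual and 2.72 prior degrees of freedom), with the contrast mean of ATRA and LE540 minus DMSO, two-sided, adjusted over all tested probe sets. Thresholds (0.1, and 2-fold beside it) are those of the series. Exact permutation tests used scipy 1.17.1. Named genes were the 8 higher and 8 lower with the largest moderated t among probe sets with 1 symbol clear of DMSO with equal sign, passing over unnamed, predicted and microRNA genes, since fewer passed; genes set by name for their sex linkage or response to 1 compound; and, for lists, the members with the largest mean difference. List members clear of DMSO, and the others listed with them, were named after their values were seen, as were Pparg, Fap, Piezo2, Csn3, Selenop and Mir29b-1. The members and lists were chosen with earlier results of these data known. Both compounds share the DMSO arrays. Core histone genes and Ddx3y were not analysed here. Alternatives covered the model, normalization, dim probe sets, prior, weights, covariates and leaving out each array. Arrays have no read depth, and their number limits the precision. P-values measure the spread between pools, which the labels do not tie to separate litters.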

Additional observations from a re-analysis of the deposited data

Results flagged for a closer look

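Genes described above for their mean over both compounds differed between ATRA and LE540 (limma adjusted p under 0.1 in that contrast), so their mean does not describe either compound. Higher with ATRA than with LE540 were Tgm2, by 2.18 log2, and Dhrs3, by 3.19 log2. Lower with ATRA were the metallothioneins, with ATRA minus LE540 at -3.50 for Mt2 and -2.13 for Mt1, and the stress genes Ddit3 at -2.01, Chac1 at -1.70 and Hmox1 at -1.65. Nnmt, at -0.91, and Nars, at -0.60, were higher than DMSO with both compounds and higher with LE540 than with ATRA.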

How the results depend on the processing

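The count of shared changes was 1 in the reported fit and 1, again Tgm2, under renewed quantile normalization, median centring, both filters on dim probe sets, a trended robust prior, array weights, all table rows, 1 probe set per gene, the heart muscle level as a covariate, an adjusted p under 0.05 and the 2-fold limit. Treating the replicate number as a block gave 0 (lowest adjusted p 0.194). The count was also 0 with the treated arrays as 1 group (lowest adjusted p 0.217), when the larger p of both compounds was tested, when both compounds had to pass alone, with the Y-linked level as a covariate, and when called genes had to be alike in both compounds, the last chosen after seeing the data. At an unadjusted p under 0.05 those fits had 1762 probe sets with the block, 1070 with the treated arrays as 1 group, 233 for the larger p, and 1774 with the Y-linked level. The cause was not tested. Same-numbered arrays correlated in their deviations at r = 0.00946 to 0.342, and only the pair of DMSO and LE540 replicate 1 was under 0.1. The labels do not say what equal numbers mark, and the reported fit did not take them as pairs. Between DMSO and ATRA and between ATRA and LE540, 6 of 6 arrays correlated best with their own number, and between DMSO and LE540 3 of 6 did, a hint from the data only.

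Leaving out 1 array gave counts of 0 to 2: 0 without DMSO replicate 1 or 3 (661 and 1131 probe sets at an unadjusted p under 0.05), Serpinf1 in place of Tgm2 without DMSO replicate 2, and Tgm2 with Nnmt, Csn3 or Chac1 without ATRA replicate 1, ATRA replicate 3 or LE540 replicate 1. Of 600 values of 29 named genes under these alternatives, 589 kept their sign and side of the threshold, 6 lost the call (all Tgm2), 3 gained it and 2 took the other sign: Cyp1b1, at 0.15 without DMSO replicate 1 (-0.75 without DMSO replicate 2), and Uty, at -0.14 with the Y-linked level it is part of. Apart from Tgm2, none of these genes passed in the reported fit, so keeping their side meant not passing again. Several alternatives, such as the block, the prior and the filters, leave the log2 value as it was. The genes with the largest moderated t were chosen as clear of DMSO, so leaving out an array could not change their sign. With the Y-linked level as a covariate the cell cycle median was -0.12, against -0.48. For values under the arrays' lower quartile, as for Ccdc152 and Mir29a, the distance from background is unknown.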

Other observations

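Members of other lists whose 6 treated arrays were clear of the 3 DMSO arrays, named after their values were seen, did not pass (limma adjusted p of 0.852 to 0.877). Lower were Notch2, a Notch receptor, at -0.43 log2 (-0.40 with ATRA, -0.46 with LE540), Tgfbr1, the type I TGF-beta receptor, at -0.38 (-0.47 and -0.29), and Gbp3, an interferon-induced GTPase, at -0.52 (-0.48 and -0.57). Higher were the mesenchymal transcription factors Twist1, at 0.31 (0.17 and 0.45), and Prrx2, at 0.32 (0.27 and 0.38), the glycolytic enzyme Tpi1, at 0.43 (0.51 and 0.35), the growth-arrest transcription factor Klf4, at 0.57 (0.25 and 0.89), the immediate early gene Egr3, at 0.10 (0.09 and 0.12), and the melanosome receptor Gpr143, at 0.26 (0.26 and 0.26). Medians of their lists were -0.02 for Notch, -0.06 for TGF-beta and BMP signalling, -0.08 for the interferon response, 0.00 for valve mesenchyme transcription factors, 0.21 for hypoxia and glycolysis and 0.10 for immediate early genes. With 1 array left out, the interferon median was -0.19 (without DMSO replicate 3) to 0.09 (without DMSO replicate 1), the hypoxia and glycolysis median 0.08 (without ATRA replicate 2) to 0.30 (without DMSO replicate 2), and the immediate early median 0.03 (without DMSO replicate 1) to 0.21 (without DMSO replicate 2). The other 3 list medians lay between -0.09 and 0.05. Background shares were 1.16% of genes above and 1.63% below. Among the 4873 rows without a gene symbol 0 passed, and 73 were above and 37 below all DMSO arrays.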
